A study of Mus musculus with 12 samples.

Results

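The genes described here are 39 members of the amino acid catabolism and urea cycle pathways of the mouse liver. They were chosen by symbol from a list of enzymes and carriers. No measured value served as a filter, but earlier results of these data were known when the list was made. All 39 were found among the 28036 genes of the count table, and all 39 had enough counts to be tested, with at least 102 counts in every library. Poly(A) RNA had been sequenced from the livers of C57BL/6J mice, an inbred strain, in 4 groups of 3. The control group was kept on a normal chow diet. In the MASH group a high-fat diet was used to induce metabolic dysfunction-associated steatohepatitis, a fatty liver disease with inflammation. EE mice and resmetirom mice also carried the high-fat diet model. After 8 weeks of model building, EE mice were dosed by mouth with Eleutheroside E, a plant lignan glycoside, at 100 mg/kg for 4 weeks. Resmetirom mice were dosed over the same 4 weeks with 3 mg/kg resmetirom, which activates the beta form of the thyroid hormone receptor. Control and MASH mice were given the vehicle, 0.5% CMC-Na. The sources used here do not give sex, age at the start or diet composition, and both compounds were given in the diet model alone. The labels do not say that the livers came from separate cages or litters, and p-values measure the spread between these livers.

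When amino acids are broken down, their nitrogen is first gathered onto glutamate and aspartate by transaminases, and glutamate dehydrogenase releases ammonia from glutamate. The urea cycle then fixes ammonia and the nitrogen of aspartate into urea, partly in the mitochondrion and partly in the cytosol, and hepatocytes around the portal vein carry out most of it. The carbon skeletons go on to glucose, ketone bodies or special products such as taurine, glutathione, methyl groups and NAD. Fasting, glucagon, glucocorticoids and dietary protein are known to raise many of these genes together in the liver.

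Library totals lay between 17297864 and 21793311 counts. The unit of levels is CPM, which scales counts to the library total with edgeR's TMM factors, and values are per kilobase of transcript where genes are compared with each other. Several livers stood apart before any comparison was made. In control 1, 35.4% of the counts came from mitochondrially encoded genes, against 2.40% to 4.38% in the other libraries. Major urinary protein genes took 35.7% of resmetirom 2 and 3.33% to 15.99% elsewhere. Correlation of log2 CPM within a group was 0.979 to 0.983 among MASH livers and 0.978 to 0.980 among EE livers, against 0.892 to 0.984 among controls and 0.903 to 0.948 among resmetirom livers. The hepatocyte markers were present in every liver, at a summed 73800 to 167300 CPM over 10 genes, and kidney markers summed to at most 0.272 CPM. Among resmetirom livers, resmetirom 1 held 2131 CPM of 12 pericentral markers against 8317 and 8601 CPM in the other two, and 53.2 CPM of 6 proliferation markers against 9.52 and 7.33 CPM. It also had the lowest hepatocyte sum of all 12 livers (73800 CPM) and the highest sums of Kupffer cell (976 CPM against 383 and 485), monocyte and macrophage (280 CPM against 100.4 and 93.2) and stellate cell markers (696 CPM against 189 and 235). Control 1 had 3745 CPM of erythroid markers against 482 and 565 CPM in the other controls, and 77.1 CPM of Kupffer cell markers against 395 and 333 CPM. In bulk tissue, fewer cells of a type and less RNA per cell cannot be told apart.

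The same livers stood apart in the 39 genes. Control 1 had the lowest of the 12 values for 13 members, compared with 27.1% of all tested genes, and resmetirom 1 had the lowest for 19 members, compared with 14.1% of all tested genes. The summed counts of the members were 1.37% of control 1 and 1.83% of resmetirom 2, and 2.53% to 3.49% of the other libraries. Within control 1, members with transcripts over 3000 bases lay below the mean of the other controls, with a median log2 difference of -0.86 over 13 genes, and members under 2000 bases had a median of 0.16 over 14 genes. Across the 39 genes, which are not independent replicates, Spearman's rho between transcript length and this difference was -0.34 in control 1, 0.43 in resmetirom 1 and -0.51 in resmetirom 2. Over 13364 genes with a known length it was -0.31, 0.39 and -0.51. Removing the mitochondrially encoded genes from the table left Cth in resmetirom against control as the member called over the 6 comparisons, with medians of the 39 genes within 0.01 of those below. Offsets for length and GC content of the transcripts also left Cth alone, and moved the medians to -0.29 in MASH against control, 0.21 in EE against MASH, 0.01 in resmetirom against MASH, -0.03 in EE against control, -0.27 in resmetirom against control and 0.20 in EE against resmetirom. The part of the cell type markers in the results was not tested. Counts of members in each comparison that holds control 1, resmetirom 1 or resmetirom 2 are given below with and without that liver.

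**Figure D1:**
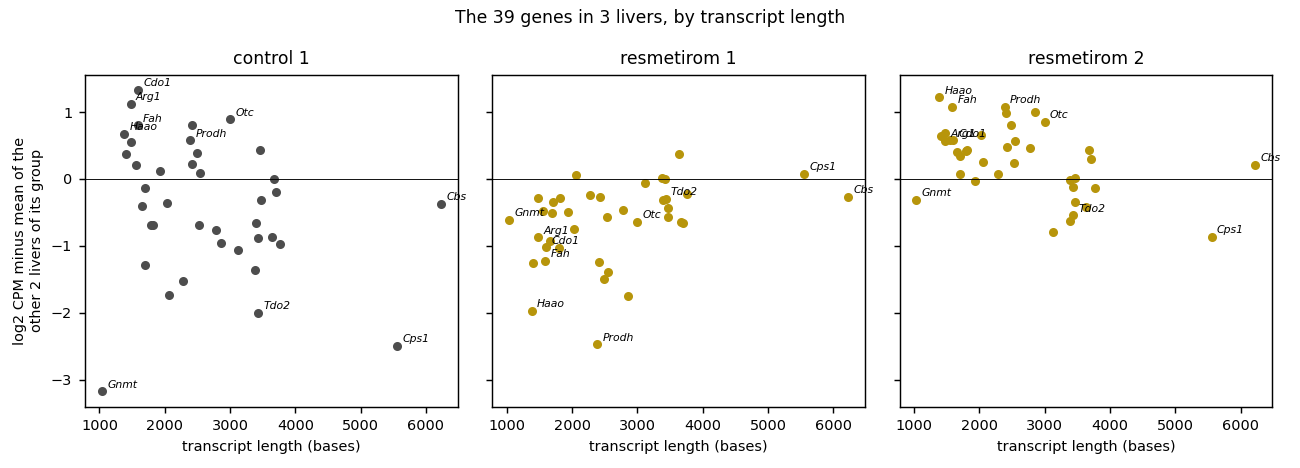
Each point is a member, with transcript length in bases on the horizontal axis and, on the vertical axis, its log2 CPM minus the mean of the other 2 livers of the group. The long transcript Cps1 lay low in control 1 and resmetirom 2. The lowest member in control 1 was Gnmt, the shortest transcript (1035 bases, -3.18), and in resmetirom 2 the longest, Cbs (6226 bases), lay at 0.21. Most members lay below 0 in resmetirom 1.

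In MASH against control, 25 of the 39 genes had a negative and 14 a positive log2 fold change, with a median of -0.20 beside -0.02 for all 13988 tested genes. None passed an adjusted p of 0.05 in edgeR, where 0.0143% of all genes did. Before adjustment 7 members had p below 0.05, all of them lower in MASH (Cth, Agxt, Csad, Arg1, Sdsl, Ass1 and Amdhd1), which is 17.9% of members beside 9.23% of all genes in either direction and 6.08% lower. In 11 members every MASH liver lay below every control liver and in 3 every MASH liver lay above, beside 9.41% and 10.2% of all genes. DESeq2 called 1 member (Cth, 0.622% of all genes called) and limma voom none. Without control 1 the signs were 31 negative to 8 positive, the median was -0.19, and 19 members were lower and 3 higher without overlap, beside 20.9% and 17.9% of all genes, and none was called (0.028% of all genes).

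In EE against MASH, 35 of the 39 genes were on the positive side, with a median log2 fold change of 0.26 beside -0.02 for all genes, of which 47.6% were positive. In 18 members (46.2%) every EE liver lay above every MASH liver, beside 16.7% of all genes, and in no member did every EE liver lie below, beside 15.5%. The sizes were modest, with log2 fold changes from -0.48 to 0.71. No member passed the threshold in edgeR (0.00715% of all genes called), and 1 had p below 0.05 before adjustment (Agxt, 7.49% of all genes). DESeq2 called none of the members (0.186% of all genes) and limma voom none. The labels name no pairs, but same-numbered MASH and EE livers correlated weakly in their deviations from group means (0.149 to 0.1902). A replicate block in the fit of all 12 libraries also called no member. The 10 hepatocyte markers summed higher in EE livers too, at 121400 to 130800 CPM against 95350 to 108700 CPM in MASH livers. Of the other marker lists, monocyte and macrophage, stellate cell and proliferation markers summed lower in EE than in MASH livers, without overlap. Monocyte and macrophage markers summed to 74.7 to 83.8 CPM in EE and 127.5 to 138 CPM in MASH livers, stellate cell markers to 165.5 to 231 and 272 to 305 CPM, and proliferation markers to 3.85 to 6.15 and 7.99 to 11.6 CPM. Pancreas acinar markers, of which 1 of 6 had enough counts to be tested, were higher in EE livers, at 29.15 to 39.58 CPM against 11.36 to 19.95 CPM in MASH livers. Kupffer cell sums were 446.5 to 573.1 CPM in EE and 381 to 478.3 CPM in MASH livers, with overlap. Erythroid sums (667.6 to 903 and 573.2 to 757.2 CPM) and endothelial sums (214.4 to 400.8 and 310.1 to 386.9 CPM) overlapped too. The part of these markers in the result was not tested. Without control 1, which is in neither group but enters the estimate of spread, no member was called (0.00699% of all genes).

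In a fit of EE and MASH livers alone, 4 members were called (Cps1, Agxt, Ahcy and Fah, all higher in EE), beside 5.63% of all genes. The adjusted p of these 4 was 0.0338 to 0.0442. With the replicate block in that fit 17 members were called, beside 20.7% of all genes, of which 16 were higher in EE and Gldc was lower. This blocked fit was added after seeing the data, on pairs that the labels do not name. With the block in the fit of all 12 libraries no member was called. Values from the blocked fit of 6 livers are given below as blocked adjusted p, beside each member whose call it changes. They are printed only where they fell below 0.05, so they were picked by their own outcome, and those of the other members are not shown. They describe that fit alone and are not taken as calls. When transcript length and GC content were offset in the fit without the block, 2 were called (Cps1 and Kmo), beside 1.84% of all genes. All of these fits rest on 6 livers, and they differ in how the spread between livers is estimated.

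In resmetirom against MASH the genes were evenly split, with 20 positive and 19 negative and a median of 0.01 beside 0.06 for all genes. No member passed in edgeR (0.665% of all genes called), and 5 had p below 0.05 before adjustment, beside 15% of all genes: Sdsl, Ass1, Agxt and Amdhd1 were higher and Tdo2 lower in resmetirom. In 6 members every resmetirom liver lay above every MASH liver and in 2 below, beside 11.6% and 12.3% of all genes. DESeq2 called 3 members (Ass1 and Sdsl higher, Tdo2 lower), beside 4.7% of all genes, and limma voom none. Resmetirom 1 weighed on these counts: without it 28 were positive, the median was 0.18, and 17 members were higher and 2 lower without overlap, beside 22.1% and 23.3% of all genes. Without resmetirom 2 the median was -0.05, with 8 members higher and 6 lower without overlap beside 17.4% and 17.2% of all genes, and without resmetirom 3 it was -0.09. Without control 1, Tdo2 was called, beside 3.01% of all genes.

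Against control livers, EE had 22 positive and 17 negative members, a median of 0.07 and none called by edgeR (0.1% of all genes), with 3 members at p below 0.05 before adjustment (Cth lower, Got2 and Kmo higher) beside 16.1%. Without overlap 5 members were higher and 3 lower in EE, beside 13.7% and 13.5% of all genes, and DESeq2 called 2 (Cth and Got2, 4.07% of all genes) while limma voom called none. Without control 1 the median was 0.03, 9 members were higher and 10 lower without overlap, beside 24.6% and 25.6% of all genes, and none was called (0.0909% of all genes). The balance turned under the length and GC offsets, to 17 positive and 22 negative. Resmetirom against control had 13 positive and 26 negative members, a median of -0.13, and 1 called member, Cth, beside 3.16% of all genes. At an unadjusted p below 0.05 there were 4 members, all lower (Cth, Tdo2, Otc and Arg1), beside 22.9% of all genes. Without overlap 1 member was higher and 4 were lower, beside 9.93% and 10.9%, and DESeq2 called 2 (Cth and Tdo2, 11.2% of all genes). Its median turned with the livers used: it was 0.01 without resmetirom 1 (23 positive, 16 negative), -0.18 without resmetirom 2, -0.30 without resmetirom 3 (10 positive, 29 negative) and -0.19 without control 1, and the offsets gave 8 positive and 31 negative. Without control 1, 1 member was higher and 13 lower without overlap, beside 18.4% and 21.8% of all genes, and 3 were called, all lower (Cth, Gnmt and Tdo2), beside 4.78%. Without resmetirom 1 the counts without overlap were 8 and 4, beside 16.1% and 16.3%, and without resmetirom 2 they were 2 and 7, beside 16.4% and 16.2%.

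Between the 2 treatments, 27 members had the higher mean in EE and 12 in resmetirom, with a median log2 difference of 0.21 beside -0.08 for all genes. No member was called by edgeR (0.307% of all genes) or DESeq2 (2.93%) or limma voom, and 3 had p below 0.05 before adjustment, all higher in EE (Tdo2, Slc25a13 and Hpd), beside 11.8%. Every EE liver lay above every resmetirom liver for 9 members and below for 1, beside 8.7% and 9.09% of all genes. Without resmetirom 1 the median was 0.02, and 9 members were higher and 8 lower in EE without overlap, beside 14.5% and 15.3%. Without resmetirom 2 the counts were 13 and 1, beside 17.3% and 18.4%. Without control 1, Tdo2 was called, beside 0.965% of all genes. The comparisons in these paragraphs share livers with each other and are not independent.

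Leaving out control 1 and resmetirom 2 together, an alternative chosen after seeing the data, gave more calls in most comparisons. Cth and Csad were then called in MASH against control (0.0634% of all genes) and in EE against control (4.15%), both lower than in control. Tdo2 was called in resmetirom against MASH (3.29% of all genes) and in EE against resmetirom (2.94%), lower in resmetirom in both. In resmetirom against control 5 members were called, all lower (Cth, Gnmt, Kynu, Otc and Tdo2), beside 7.46%. In EE against MASH no member was called, beside 0.472% of all genes.

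**Figure D2:**
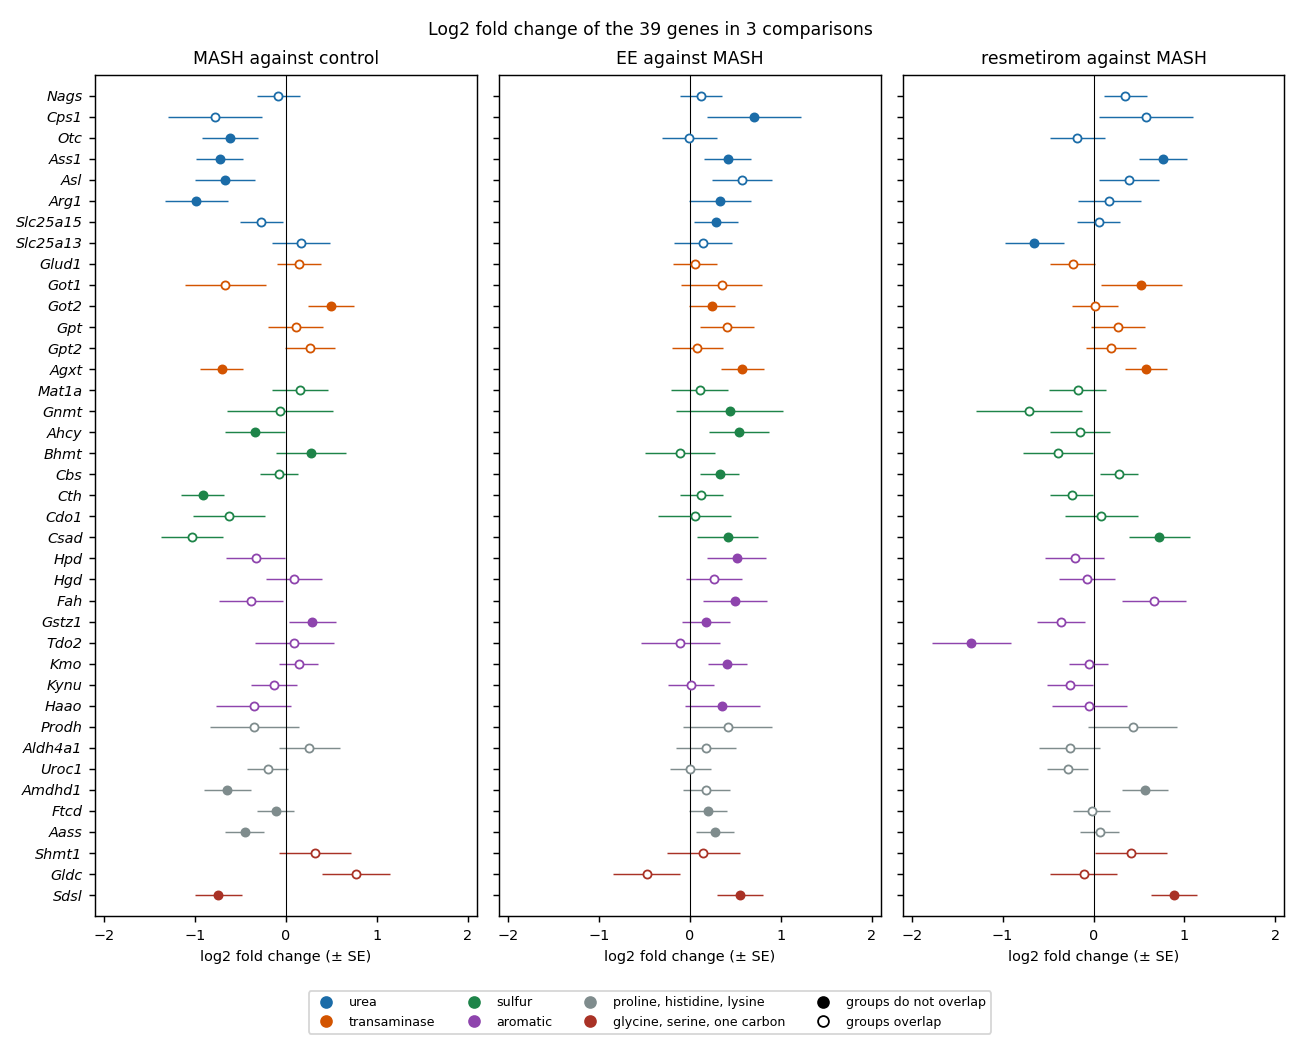
Log2 fold change with its standard error for the 39 genes, in the order of their roles, in MASH against control, EE against MASH and resmetirom against MASH. Filled points are genes whose 2 groups of 3 livers do not overlap. The points of EE against MASH lie mostly to the right of 0 and the urea cycle points of MASH against control mostly to the left.

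For 3 of the members to which the results return most often, Ass1, Agxt and Tdo2, the 200 bases before the gene's start are shown as RefSeq gives them for GRCm38.p6, 5′ to 3′ on the strand of the gene. Ass1 lies on the plus strand (window chr2:31470070-31470269), Agxt on the plus strand (chr1:93135040-93135239) and Tdo2 on the minus strand (chr3:81975729-81975928). Capitals mark the nuclear receptor half-site AGGTCA, on either strand, which these windows hold once, in Tdo2, where it starts 6 bases before the gene's start and is read as TGACCT.
Ass1: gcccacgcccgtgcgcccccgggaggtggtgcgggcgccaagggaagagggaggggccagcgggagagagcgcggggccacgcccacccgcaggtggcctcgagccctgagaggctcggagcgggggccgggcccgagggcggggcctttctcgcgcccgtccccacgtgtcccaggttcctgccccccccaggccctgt
Agxt: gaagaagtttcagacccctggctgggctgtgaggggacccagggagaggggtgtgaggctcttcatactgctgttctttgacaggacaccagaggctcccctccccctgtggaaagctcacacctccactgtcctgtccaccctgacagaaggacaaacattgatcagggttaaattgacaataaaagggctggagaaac
Tdo2: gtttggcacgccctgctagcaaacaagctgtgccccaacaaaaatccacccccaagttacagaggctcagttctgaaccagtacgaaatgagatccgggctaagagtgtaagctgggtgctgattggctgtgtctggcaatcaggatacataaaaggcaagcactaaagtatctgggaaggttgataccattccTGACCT

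Promoters of 30 of the 39 members were matched by symbol in that table, with 33 start sites, and their 250 bases before the start were searched on both strands. AGGTCA, the half-site bound by many nuclear receptors, occurred in 11 of the 33 (33.3%; Aass, Ahcy, Bhmt, Gnmt, Got1, Got2, Haao, Hgd, Nags, Tdo2 and Uroc1), beside 14.0% of 32851 promoters of all genes. TATAAA, the core of the TATA box, occurred in 4 of the 33 (12.1%), beside 12.4% of all promoters. TGATGCAA, an amino acid response element, occurred in 1 (Got1), beside 0.792%. TTGCGCAA, the palindrome bound by C/EBP factors, and TGACGTCA, the full cyclic AMP response element, occurred in 0 of the 33, beside 0.164% and 1.55%. None of these letter strings contains another, and a match is a description of the sequence only.

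The urea cycle genes showed the lowest role median in MASH against control. Of 8 members, 7 had a negative log2 fold change (median -0.64, range -0.99 to 0.16), 4 did not overlap (Otc, Ass1, Asl and Arg1, all lower in MASH) and none was called. Without control 1 all 8 were negative, with a median of -0.50. In EE against MASH 7 of the 8 were positive (median 0.31), and 4 did not overlap, with EE higher in each (Cps1, Ass1, Arg1 and Slc25a15). In resmetirom against MASH 6 were positive (median 0.26, and 0.49 without resmetirom 1). None of the 8 was called by edgeR in any of the 6 comparisons with all 12 livers.

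Ass1, argininosuccinate synthetase, which joins citrulline and aspartate, had the highest level per length of all 39 genes, at 1653 CPM per kilobase over the 4 groups. Its level was 3054, 3715 and 3037 CPM in control livers, 1897, 1638 and 2369 CPM in MASH livers, 2460, 2755 and 2665 CPM in EE livers and 2610, 3873 and 3560 CPM in resmetirom livers. The MASH livers held the 3 lowest values of the 12, with no overlap with any other group. Its log2 fold change was -0.73 ± 0.26 (SE) in MASH against control (adjusted p = 0.512), 0.42 ± 0.26 in EE against MASH (adjusted p = 0.783, blocked adjusted p = 0.0402) and 0.77 ± 0.26 in resmetirom against MASH (adjusted p = 0.207). DESeq2 gave the last of these an adjusted p of 0.0118.

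Cps1, carbamoyl phosphate synthetase, carries out the first and committed step of the cycle in the mitochondrion and has the second longest transcript among the members, at 5555 bases. Control livers read 676, 4116 and 3538 CPM, MASH livers 1648, 1484 and 1720 CPM, EE livers 2190, 3165 and 2578 CPM and resmetirom livers 2387, 1544 and 3295 CPM. Control 1 was the lowest of all 12 livers, and the 2 other controls were the highest. Every EE liver lay above every MASH liver, with a log2 fold change of 0.71 ± 0.52 (adjusted p = 0.809), which was 0.70 ± 0.15 (adjusted p = 0.0338) in the fit of EE and MASH alone (blocked adjusted p = 0.0148). In MASH against control the log2 fold change was -0.78 ± 0.52 (adjusted p = 0.68), and -1.24 ± 0.30 (adjusted p = 0.424) without control 1.

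Arg1, arginase, which splits arginine into urea and ornithine, lay at 2241, 990 and 1061 CPM in control, 738, 733 and 691 CPM in MASH, 822, 1047 and 848 CPM in EE and 523, 1019 and 901 CPM in resmetirom livers. Control 1 was more than 2-fold above the other controls, the opposite of Cps1 in the same liver. In MASH against control the log2 fold change was -0.99 ± 0.35 (adjusted p = 0.512), and -0.50 ± 0.26 (adjusted p = 0.853) without control 1. Between EE and MASH it was 0.33 ± 0.34 (adjusted p = 0.866, blocked adjusted p = 0.0453). Otc, ornithine transcarbamylase, had a mean of 475 ± 184 CPM (SD, n = 3) in control, 310 ± 21.6 in MASH, 309 ± 23.9 in EE and 274 ± 103 in resmetirom livers. Its log2 fold change of -0.61 in MASH against control became -0.25 without control 1.

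Asl, argininosuccinate lyase, had means of 514 ± 49.6 CPM in control, 322 ± 71.1 in MASH, 479 ± 76.8 in EE and 423 ± 198 in resmetirom livers (SD, n = 3). Its log2 fold change in EE against MASH was 0.57 ± 0.33 (adjusted p = 0.752, blocked adjusted p = 0.00871). Nags makes the activator of Cps1 and was the least abundant of the cycle per length, at 29.1 CPM per kilobase, with group means from 53.2 to 67.9 CPM. The ornithine carrier Slc25a15 had means of 224 ± 15.8 CPM in MASH and 274 ± 16.7 in EE livers, which did not overlap (log2 fold change 0.29 ± 0.24, adjusted p = 0.826). The aspartate and glutamate carrier Slc25a13 (citrin) was, with Otc, 1 of the 2 members of this role with a negative log2 fold change in resmetirom against MASH. It read 101, 203 and 218 CPM in control, 176, 202 and 207 CPM in MASH, 196, 201 and 251 CPM in EE and 115, 81.6 and 176 CPM in resmetirom livers. Its log2 fold change was 0.80 ± 0.32 in EE against resmetirom (adjusted p = 0.36) and -0.65 ± 0.32 in resmetirom against MASH (adjusted p = 0.368), and in both every resmetirom liver lay below the other group.

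**Figure D3:**
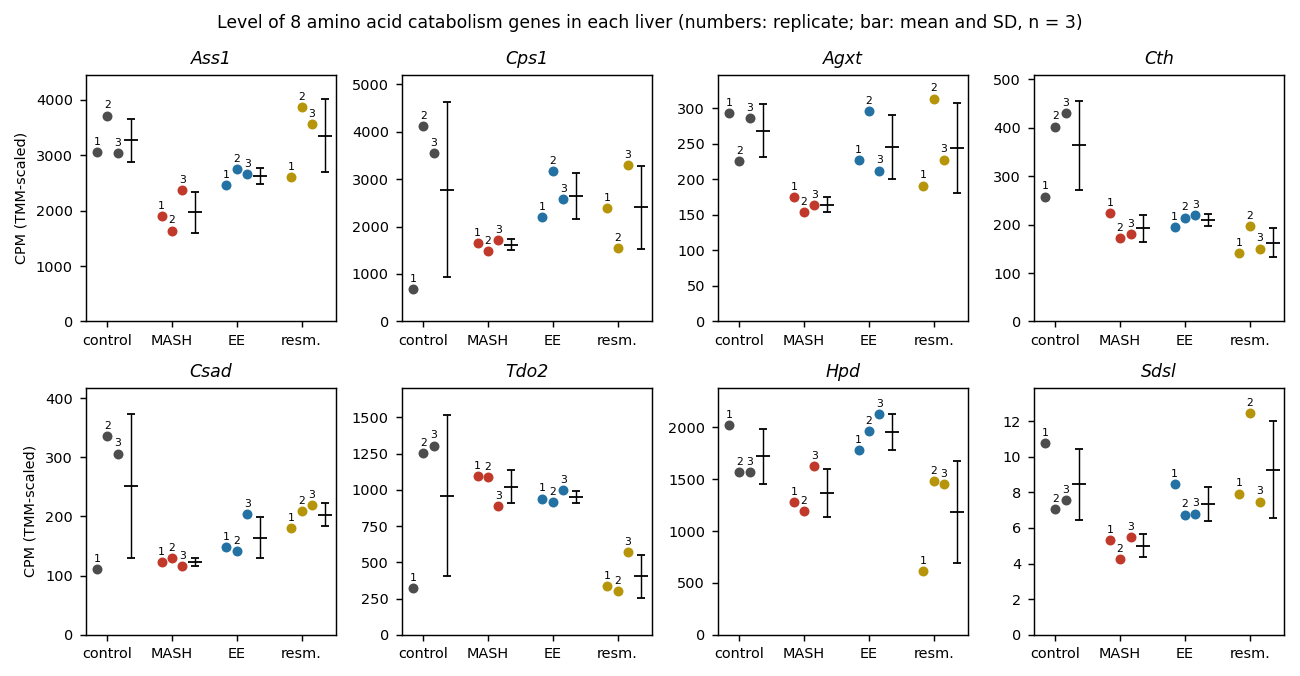
Level in CPM of 8 members in each liver, with replicate numbers on the points and a bar for the mean and SD of each group (n = 3; resm. is resmetirom). MASH livers are the lowest group for Ass1 and Sdsl, controls the highest for Cth, and resmetirom livers lie below MASH and EE livers for Tdo2.

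The transaminases and glutamate dehydrogenase had mixed signs in MASH against control (4 positive and 2 negative, median 0.12), and all 6 were positive in EE against MASH (median 0.30). In resmetirom against MASH 5 of 6 were positive (median 0.23). None of the 6 was called by edgeR in any comparison with all 12 livers. Got2, the mitochondrial aspartate aminotransferase, had the highest level per length of the group, at 264.0 CPM per kilobase, with Glud1 (263.7) beside it.

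Agxt turns glyoxylate into glycine with alanine as the donor. Control livers had 293, 226 and 286 CPM, MASH livers 175, 154 and 164 CPM, EE livers 227, 296 and 212 CPM and resmetirom livers 191, 314 and 228 CPM. The 3 MASH livers were the lowest of the 12 and overlapped with no other group. The log2 fold change was -0.71 ± 0.23 in MASH against control (adjusted p = 0.51), 0.58 ± 0.23 in EE against MASH (adjusted p = 0.627) and 0.57 ± 0.23 in resmetirom against MASH (adjusted p = 0.276). In the fit of EE and MASH alone the adjusted p was 0.0434 (blocked adjusted p = 0.024). EE and resmetirom livers had nearly the same mean, 245 ± 44.9 and 244 ± 62.8 CPM (SD, n = 3).

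Got2 was measured at 344, 570 and 542 CPM in control, 656, 637 and 760 CPM in MASH, 767, 783 and 888 CPM in EE and 522, 758 and 791 CPM in resmetirom livers. Controls were below MASH and EE livers without overlap. Its log2 fold change was 0.74 ± 0.25 in EE against control (edgeR adjusted p = 0.198, DESeq2 adjusted p = 0.0458) and 0.50 ± 0.25 in MASH against control (adjusted p = 0.578). A processed copy of the gene, Got2-ps1, is in the annotation, and reads shared with it could have been split by the counting. Got1, the cytosolic partner enzyme, had 78.0, 263 and 255 CPM in control, 91.5, 136 and 148 CPM in MASH, 88.4, 245 and 145 CPM in EE and 184, 201 and 155 CPM in resmetirom livers, with control 1, MASH 1 and EE 1 the lowest of their groups. Resmetirom livers lay above MASH livers (log2 fold change 0.53 ± 0.44, adjusted p = 0.602).

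The alanine aminotransferases Gpt (cytosolic) and Gpt2 (mitochondrial) had group means of 216 to 308 CPM and 349 to 478 CPM. For Gpt in EE against MASH the log2 fold change was 0.41 ± 0.30, with overlapping livers (adjusted p = 0.81, blocked adjusted p = 0.0104). Glud1, glutamate dehydrogenase, had group means between 803 and 980 CPM, and its log2 fold changes against MASH were 0.06 in EE and -0.23 in resmetirom livers.

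Among the sulfur amino acid genes, Cth was the member called, and the signs of the others were mixed. In MASH against control 6 of 8 were negative (median -0.21), in EE against MASH 7 of 8 were positive (median 0.23) and in resmetirom against MASH 5 of 8 were negative (median -0.16). Against control, resmetirom livers had 7 of 8 negative (median -0.40).

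Cth, cystathionine gamma-lyase, makes cysteine from cystathionine and produces hydrogen sulfide. Its level was 258, 402 and 430 CPM in control, 224, 172 and 180 CPM in MASH, 196, 214 and 219 CPM in EE and 141, 196 and 150 CPM in resmetirom livers. Every control liver lay above all 9 livers of the diet model. Cth fell in resmetirom against control, with a log2 fold change of -1.16 ± 0.24 (adjusted p = 0.029), so that controls had 2.24 times the resmetirom level. In MASH against control the log2 fold change was -0.92 ± 0.24 (edgeR adjusted p = 0.408, DESeq2 adjusted p = 0.0143), and in EE against control -0.79 ± 0.24 (edgeR adjusted p = 0.161, DESeq2 adjusted p = 0.0242). Among the diet model groups the differences were smaller, at 0.12 ± 0.24 in EE against MASH, -0.24 ± 0.24 in resmetirom against MASH and 0.37 ± 0.24 in EE against resmetirom.

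The Cth call in resmetirom against control depended on which livers were in the fit. It held without control 1, MASH 1, MASH 3, EE 1 or resmetirom 2, at adjusted p from 0.0157 to 0.0498. Leaving out control 2, control 3, MASH 2, EE 2, EE 3, resmetirom 1 or resmetirom 3 gave 0.0527 to 0.083. With the control and resmetirom livers alone in the fit the adjusted p was 0.311, at a log2 fold change of -1.17. Limma voom gave an adjusted p of 0.0318.

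Cbs, cystathionine beta-synthase, which precedes Cth in transsulfuration, had means of 422 ± 60.4 CPM in control, 400 ± 58.4 in MASH, 502 ± 50.5 in EE and 486 ± 53.4 in resmetirom livers (SD, n = 3). Every EE liver lay above every control and every MASH liver (log2 fold change 0.33 ± 0.21 against MASH, adjusted p = 0.785, blocked adjusted p = 0.035).

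Csad, cysteine sulfinic acid decarboxylase, a step toward taurine, had 111, 336 and 306 CPM in control, 123, 130 and 116 CPM in MASH, 148, 141 and 204 CPM in EE and 181, 209.5 and 219.7 CPM in resmetirom livers. MASH livers lay below all EE and resmetirom livers and below control 2 and control 3, while control 1 was the lowest of all. In MASH against control the log2 fold change was -1.03 ± 0.34 (adjusted p = 0.51), and -1.38 ± 0.20 (adjusted p = 0.0527) without control 1. It was 0.42 ± 0.34 in EE against MASH (adjusted p = 0.821) and 0.73 ± 0.34 in resmetirom against MASH (adjusted p = 0.338). The exons of Csad overlap those of Zfp740 on the other strand, and the counting strand is not given in the sources used here. Cdo1, cysteine dioxygenase, the step before Csad, read 2595 CPM in control 1 and 868 to 1327 CPM in all other livers except resmetirom 1, which read 634 CPM.

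The methionine cycle genes Mat1a, Gnmt, Ahcy and Bhmt make S-adenosylmethionine, use it, and restore methionine. Bhmt, which remethylates homocysteine with betaine, was the most abundant of the sulfur genes per length, at 1373 CPM per kilobase. It had 3806, 2948 and 2892 CPM in control, 4029, 3811 and 3834 CPM in MASH, 4949, 3020 and 2852 CPM in EE and 1337, 3876 and 3666 CPM in resmetirom livers. MASH livers lay just above the controls (log2 fold change 0.28 ± 0.38, adjusted p = 0.846), and EE livers spanned the control and MASH values. Gnmt, glycine N-methyltransferase, had 161, 1434 and 1479 CPM in control, 922, 839 and 1169 CPM in MASH, 1409, 1298 and 1261 CPM in EE and 428, 492 and 871 CPM in resmetirom livers. EE livers were above MASH and resmetirom livers without overlap, with a log2 fold change of 1.15 ± 0.59 in EE against resmetirom (adjusted p = 0.494). Against MASH it was 0.44 ± 0.59 in EE livers (adjusted p = 0.896, blocked adjusted p = 0.034). In resmetirom against control Gnmt was at -0.78 ± 0.59 (adjusted p = 0.462) and, without control 1, at -1.29 ± 0.29 (adjusted p = 0.0356).

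Ahcy, which splits S-adenosylhomocysteine, had means of 1785 ± 179 CPM in control, 1411 ± 142 in MASH, 2048 ± 122 in EE and 1271 ± 577 in resmetirom livers (SD, n = 3). EE livers lay above MASH and resmetirom livers without overlap, and the log2 fold change against MASH was 0.54 ± 0.33 (adjusted p = 0.776, 0.0357 in the fit of EE and MASH alone, and blocked adjusted p = 0.00883). Mat1a, the S-adenosylmethionine synthetase of adult liver, had group means of 2359 to 2867 CPM, and its log2 fold changes in the 6 comparisons lay between -0.17 and 0.28.

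The tyrosine and tryptophan genes had the largest role median in EE against resmetirom. In EE against MASH 7 of 8 were positive (median 0.31), in resmetirom against MASH 7 of 8 were negative (median -0.14) and in EE against resmetirom 7 of 8 were positive (median 0.43). Resmetirom 1 was low across the group, with a median log2 difference from the MASH mean of -0.81, beside 0.08 in resmetirom 2 and in resmetirom 3. Without resmetirom 1, 5 of 8 were positive in resmetirom against MASH (median 0.07), and the median in EE against resmetirom was 0.25. None of the 8 was called by edgeR in any comparison with all 12 livers.

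Tdo2, tryptophan 2,3-dioxygenase, opens the kynurenine pathway. Control livers read 320, 1255 and 1304 CPM, MASH livers 1092, 1087 and 888 CPM, EE livers 939, 918 and 999 CPM and resmetirom livers 337, 301 and 571 CPM. All 3 resmetirom livers lay below all MASH and EE livers, and control 1 lay among them. The log2 fold change was -1.34 ± 0.44 in resmetirom against MASH (edgeR adjusted p = 0.188, DESeq2 adjusted p = 0.0425), and MASH livers had 2.54 times the resmetirom level. It was 1.24 ± 0.44 in EE against resmetirom (adjusted p = 0.288) and -1.25 ± 0.44 in resmetirom against control (edgeR adjusted p = 0.121, DESeq2 adjusted p = 0.0362). When control 1 was left out, these became -1.35 ± 0.24 (adjusted p = 0.0214), 1.25 ± 0.24 (adjusted p = 0.0432) and -1.67 ± 0.26 (adjusted p = 0.0163). MASH and EE livers were close, with a log2 fold change of -0.10 ± 0.43.

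For the later kynurenine genes, resmetirom and MASH livers overlapped. Kmo, kynurenine 3-monooxygenase, had means of 271 ± 10.8 CPM in control, 298 ± 22.2 in MASH, 396 ± 29.7 in EE and 287 ± 69.9 in resmetirom livers (SD, n = 3). Every EE liver lay above every liver of the other 3 groups, with a log2 fold change of 0.41 ± 0.21 against MASH (adjusted p = 0.709, blocked adjusted p = 0.00857) and 0.55 ± 0.21 against control (adjusted p = 0.241). Haao, which forms quinolinate on the way to NAD, had 331, 315 and 381 CPM in MASH and 450, 421 and 444 CPM in EE livers, and ranged from 112 to 489 CPM among resmetirom livers. Haao was at 0.36 ± 0.41 on the log2 scale in EE against MASH (adjusted p = 0.877, blocked adjusted p = 0.0194). Kynu, kynureninase, had group means of 112 to 147 CPM.

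Hpd, 4-hydroxyphenylpyruvate dioxygenase of tyrosine breakdown, had the highest level per length of the aromatic genes, at 1108 CPM per kilobase. It read 2022, 1567 and 1569 CPM in control, 1279, 1189 and 1628 CPM in MASH, 1780, 1962 and 2125 CPM in EE and 616, 1481 and 1452 CPM in resmetirom livers. EE livers lay above all MASH and all resmetirom livers. The log2 fold change was 0.52 ± 0.32 against MASH (adjusted p = 0.782, blocked adjusted p = 0.00982) and 0.73 ± 0.33 against resmetirom (adjusted p = 0.409), the latter 0.42 ± 0.24 (adjusted p = 0.631) without resmetirom 1. Fah, the last enzyme of the tyrosine pathway, had 434, 474 and 541 CPM in MASH, 620, 705 and 719 CPM in EE and 398, 1155 and 749 CPM in resmetirom livers, the widest spread being among the latter. Fah was at 0.50 ± 0.35 in EE against MASH (adjusted p = 0.805, blocked adjusted p = 0.00615). Hgd and Gstz1, the steps between Hpd and Fah, had EE means of 576 ± 44.7 and 757 ± 41.4 CPM beside MASH means of 480 ± 72.9 and 669 ± 32.6 CPM (SD, n = 3), and the EE and MASH livers did not overlap for Gstz1. For Hgd the log2 fold change in EE against MASH was 0.26 ± 0.31 (adjusted p = 0.877, blocked adjusted p = 0.0487). Exons of Gstz1 overlap those of Pomt2 on the other strand.

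The proline, histidine and lysine genes had 5 of 6 negative in MASH against control (median -0.28), and all 6 were negative without control 1 (median -0.10). All 6 were positive in EE against MASH (median 0.19), and in resmetirom against MASH 3 were positive and 3 negative (median 0.02). No member of the group was called by edgeR with all 12 livers. Ftcd, which passes the formimino group of histidine to folate, had the highest level per length, at 141 CPM per kilobase. Its values were 295, 271 and 274 CPM in control, 257, 255 and 265 CPM in MASH, 272, 322 and 299 CPM in EE and 199, 247 and 320 CPM in resmetirom livers. MASH livers lay just below controls and EE livers, with log2 fold changes of -0.11 ± 0.21 against control and 0.20 ± 0.21 in EE against MASH.

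Amdhd1, an enzyme of the same histidine pathway, had 275, 165 and 151 CPM in control, 144, 110 and 123 CPM in MASH, 161, 138 and 130 CPM in EE and 162, 230 and 167 CPM in resmetirom livers. Resmetirom livers lay above all MASH and all EE livers, with a log2 fold change of 0.56 ± 0.26 against MASH (adjusted p = 0.327). Uroc1, urocanase, the step before Amdhd1, had means of 345 ± 63.2 CPM in control, 300.2 ± 48.4 in MASH, 301 ± 26.0 in EE and 247 ± 48.1 in resmetirom livers (SD, n = 3), the reverse order of Amdhd1 in the treated livers. Aass, the first enzyme of lysine breakdown, read 219 to 252 CPM in control, 173 to 178 CPM in MASH, 194 to 241 CPM in EE and 133 to 213 CPM in resmetirom livers, and MASH did not overlap with control or EE livers (adjusted p = 0.549 and 0.813). Prodh and Aldh4a1, the proline dehydrogenase and the next step to glutamate, had group means of 139 to 187 CPM and 358 to 486 CPM, and Prodh ranged from 46.2 to 277 CPM among resmetirom livers. Prodh was at 0.42 ± 0.49 in EE against MASH (adjusted p = 0.877, blocked adjusted p = 0.0333). Aldh4a1 overlaps Gm21969 on the same strand, so its level could depend on how shared reads were counted.

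Of the glycine, serine and one carbon genes, Shmt1 had the highest level per length, at 64.8 CPM per kilobase, and Sdsl the lowest of all 39 genes, at 5.10. Sdsl, a serine dehydratase-like enzyme, had 10.8, 7.06 and 7.56 CPM in control, 5.30, 4.27 and 5.47 CPM in MASH, 8.47, 6.75 and 6.81 CPM in EE and 7.94, 12.4 and 7.48 CPM in resmetirom livers. The MASH livers were again the 3 lowest. The log2 fold change was -0.75 ± 0.26 in MASH against control (adjusted p = 0.512), 0.55 ± 0.26 in EE against MASH (adjusted p = 0.672, blocked adjusted p = 0.0394) and 0.88 ± 0.26 in resmetirom against MASH (edgeR adjusted p = 0.141, DESeq2 adjusted p = 0.0403).

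Shmt1, the cytosolic serine hydroxymethyltransferase, had 86.0, 153 and 182 CPM in control, 172, 159 and 193 CPM in MASH, 201, 166 and 215 CPM in EE and 90.4, 321 and 286 CPM in resmetirom livers. All groups overlapped, and the log2 fold change in resmetirom against control was 0.73 ± 0.40 (adjusted p = 0.3). Exons of Shmt1 overlap those of Smcr8 on the other strand. Gldc, of the glycine cleavage system, had a mean of 99.9 ± 34.5 CPM in control, 171 ± 62.0 in MASH, 123 ± 57.5 in EE and 158 ± 24.0 in resmetirom livers (SD, n = 3). Its log2 fold change in EE against MASH, -0.48 ± 0.37 (adjusted p = 0.816), was the lowest of the 39. In the blocked fit it was -0.52 ± 0.09 (blocked adjusted p = 0.00721). By replicate number, MASH livers read 239, 119.5 and 152.5 CPM and EE livers 189, 86.1 and 92.8 CPM, and the groups overlapped.

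**Figure D4:**
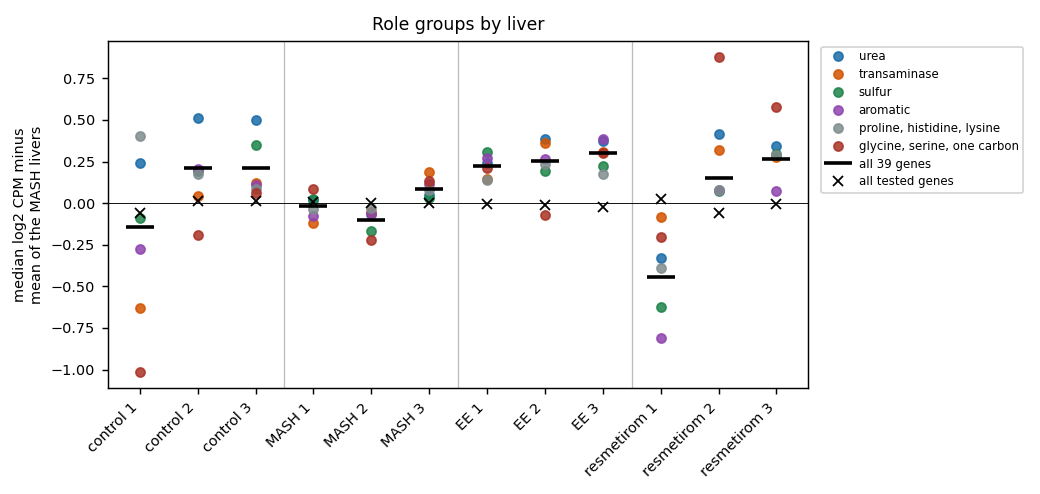
For each of the 12 livers, the median over a role's members of log2 CPM minus the mean of the MASH livers, with a black bar for all 39 genes and a cross for all tested genes. All 3 EE livers have a 39-gene median of 0.22 to 0.30, control 1 (-0.14) and resmetirom 1 (-0.44) lie below the other livers of their groups, and the crosses stay near 0.

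Liver by liver, the median of the 39 genes relative to the MASH mean was 0.22, 0.25 and 0.30 in EE livers and -0.02, -0.10 and 0.09 in MASH livers. It was -0.14, 0.21 and 0.21 in controls and -0.44, 0.15 and 0.27 in resmetirom livers. The range over livers was smallest in EE and widest in resmetirom, where resmetirom 1 lay below all MASH livers and the other 2 above them. For all tested genes the medians stayed between -0.06 and 0.03. On the same scale the 10 hepatocyte markers had medians of 0.42, 0.49 and 0.43 in EE livers, above those of the 39 genes. In MASH livers the marker medians were 0.06, -0.07 and -0.03. Whether the rise of the 39 genes in EE livers is separate from that of hepatocyte genes in general was not tested.

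A further 58 genes of amino acid breakdown and related steps were all tested. None was called in MASH against control (30 positive, 28 negative, median 0.02) or in EE against MASH (42 positive, 16 negative, median 0.15). Between EE and MASH 24 of them were higher in EE and 5 lower without overlap, beside 16.7% and 15.5% of all genes. In resmetirom against MASH 22 were positive and 36 negative (median -0.20), with 3 higher and 14 lower without overlap beside 11.6% and 12.3% of all genes. In resmetirom against control 19 were positive and 39 negative, and in EE against resmetirom 45 were positive and 13 negative (median 0.35). Oat, ornithine aminotransferase, a gene of pericentral hepatocytes that turns ornithine toward glutamate, had the lowest adjusted p of the pathway. It read 969.5, 1016 and 1016 CPM in control, 619, 785 and 1228 CPM in MASH, 538, 675 and 715 CPM in EE and 94.6, 149.5 and 171 CPM in resmetirom livers. Oat fell in resmetirom against MASH by 2.66 ± 0.31 on the log2 scale (adjusted p = 0.0089), was lower than in control (-2.85 ± 0.32, adjusted p = 0.00349), and was higher in EE than in resmetirom livers (2.22 ± 0.31, adjusted p = 0.0185). In resmetirom against control Etnppl, a phospholyase (-3.37 ± 0.48, adjusted p = 0.0104), and Acadsb, of branched-chain breakdown (-0.94 ± 0.20, adjusted p = 0.0329), also fell. Acmsd, which diverts the kynurenine pathway away from NAD, had 17.6, 22.1 and 16.9 CPM in control and 6.15, 5.44 and 6.05 CPM in MASH livers (-1.68 ± 0.33, adjusted p = 0.198). Gls2, liver glutaminase, was at -0.94 ± 0.20 in the same comparison (adjusted p = 0.244), and Tat, tyrosine aminotransferase, at 1.15 ± 0.46 in EE against MASH (adjusted p = 0.627).

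No gene among 12 amino acid carriers or 15 regulators was called in any comparison. Klf15, a transcription factor that drives amino acid breakdown genes, had 109.5, 128 and 154 CPM in control, 89.6, 79.3 and 60.1 CPM in MASH, 129, 151 and 184 CPM in EE and 89.4, 154 and 86.6 CPM in resmetirom livers. EE livers lay above all MASH livers (log2 fold change 1.02 ± 0.27, adjusted p = 0.582). Hnf4a, a factor of hepatocyte identity that is also in the hepatocyte marker list, had higher values in EE than in MASH livers without overlap (0.59 ± 0.21, adjusted p = 0.61), and Nr3c1, the glucocorticoid receptor, had lower values (-0.68 ± 0.21, adjusted p = 0.595). Cebpb was at 1.66 ± 0.46 in resmetirom against MASH (adjusted p = 0.123). Of 13 periportal markers, 7 were positive and 6 negative in resmetirom against MASH. Without overlap 3 were higher and 2 lower, beside 11.6% and 12.3% of all genes. Cdh1 and Sult5a1 were called, both higher (1.92 ± 0.37 and 3.05 ± 0.59, adjusted p = 0.0435 for both), beside 0.665% of all genes. Summed periportal markers were 5734 to 6149 CPM in control, 3613 to 4764 CPM in MASH, 5072 to 6641 CPM in EE and 4329 to 5232 CPM in resmetirom livers. The MASH sums lay below those of controls and EE livers, but a sum weighs abundant genes most. Pck1, the largest of the list in EE livers, had 1676, 2541 and 2933 CPM there and 1311, 1203 and 853 CPM in MASH livers. Gene by gene, 9 of the 13 were positive and 4 negative in EE against MASH. Of these, 4 were higher and 2 lower without overlap, beside 16.7% and 15.5% of all genes. Part of that periportal list (Hal, Sds, Gls2 and Etnppl) is also among the 58 other genes above, and its part in the results was not tested.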

How the data were processed

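The authors deposited 1 table of expected counts per gene for the 12 livers, with Ensembl identifiers; 91.47% to 93.33% of its values per library are whole. Reads were paired, 150 bases long and from an Illumina stranded poly(A) kit per the labels' protocols, and were trimmed with fastp for genome build GRCm39 per the submitters' processing notes. For the aligner, the counter and its strand setting, nothing is given in the sources used here. Of 28036 identifiers 22603 were matched to a symbol, and of 260 symbols on the lists 252 matched directly, 2 through a synonym and 6 not.

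Expected counts were rounded and fitted in edgeR 4.0.16 (R 4.3.3) with a robust quasi-likelihood model of all 12 libraries in 4 groups, after its expression filter (13988 genes) and TMM scaling. P-values were adjusted by Benjamini-Hochberg over all tested genes, with a threshold of 0.05, in 6 comparisons. The standard error is the log2 fold change divided by the square root of F. The script was tested on simulated data. Alternatives were RLE scaling, DESeq2 1.42.0, limma 3.58.1 voom, no filter, the compared groups alone, a replicate block and each library left out. Added after seeing the data were control 1 and resmetirom 2 left out together, removal of mitochondrially encoded genes, offsets for length and GC content of transcripts, and, for EE against MASH, the compared groups alone with the block or with the offsets.

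The replicate numbers were checked for pairing by the correlation of deviations from group means. It was 0.149 to 0.1902 in the 3 same-numbered MASH and EE pairs, and was not above 0.1 in every pair of any other 2 groups. Livers of different number reached 0.477 (control 1 and resmetirom 2). The labels name no pairs, so taking same-numbered MASH and EE livers as pairs rests on these data alone. Transcript lengths and gene overlaps came from GENCODE for GRCm38, and promoters from RefSeq for GRCm38.p6, matched by symbol. The members and lists were chosen with earlier results of these data known. Full values are given for members past the threshold, for the 2 with the smallest unadjusted p in each comparison and for the highest level per length in each role, and other genes were chosen after their values were seen.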

Additional observations from a re-analysis of the deposited data

How the results depend on the processing

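With each of the 12 libraries left out in turn, members called numbered 0 to 0 in MASH against control, EE against MASH and EE against control, 0 to 1 in resmetirom against MASH and in EE against resmetirom, and 0 to 3 in resmetirom against control. The highest counts came without control 1. DESeq2 called 1 member in MASH against control, 3 in resmetirom against MASH, 2 in EE against control and 2 in resmetirom against control. With the compared groups alone, 4 members were called in EE against MASH and 0 in resmetirom against control. With control 1 and resmetirom 2 left out, the counts were 2 in MASH against control, 1 in resmetirom against MASH, 2 in EE against control, 5 in resmetirom against control and 1 in EE against resmetirom. With the replicate block and the compared groups alone, 17 were called in EE against MASH, and with the offsets and the compared groups alone, 2. The replicate block in the fit of all libraries changed no count of members called, and Cth in resmetirom against control had an adjusted p of 0.0423 with it. Some members changed sign: in MASH against control 25 were negative with all livers and 31 without control 1. The members with the 2 smallest unadjusted p in a comparison did not change sign in it when any library was left out. Medians of the 39 genes did: EE against control went from 0.07 to -0.03 with the offsets, resmetirom against MASH from 0.01 to -0.05 without resmetirom 2, to -0.09 without resmetirom 3, to -0.01 without MASH 2, to -0.02 with no filter, to -0.05 with control 1 and resmetirom 2 left out and to -0.01 with the replicate block, and resmetirom against control from -0.13 to 0.01 without resmetirom 1. With mitochondrially encoded genes removed, the members called and the signs of the medians were the same.

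Counts over all genes, in the order MASH against control, EE against MASH, resmetirom against MASH, EE against control, resmetirom against control and EE against resmetirom, were 2, 1, 93, 14, 442 and 43. They were 87, 26, 657, 569, 1560 and 410 in DESeq2, 34, 8, 243, 117, 537 and 176 with no filter, 0, 746, 0, 0, 5 and 3 with the compared groups alone, 2, 5, 112, 17, 327 and 19 with the replicate block, and 1, 0, 123, 1, 263 and 62 with the offsets. With limma voom they were 1, 0, 100, 9, 354 and 30. In EE against MASH, members with p below 0.05 before adjustment numbered 1 with all 12 livers, 17 with the 6 livers alone and 23 with the block as well, so the count depends on how the spread is estimated.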
